A study of Mus musculus with 24 samples.

Results

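Oxidative phosphorylation subunit genes were followed in sorted thymocytes through the first stages of T cell development. They were taken by name as every gene on the array whose symbol begins with *Nduf* followed by a, b, s or v and a digit (complex I), is *Sdha*, *Sdhb*, *Sdhc* or *Sdhd* (complex II), or begins with *Uqcr* (complex III), with *Cox* and a digit from 4 to 8 (complex IV) or with *Atp5* (complex V). This gave 79 of 18193 named genes, with 1 probe set for each gene, the one with the highest mean signal over all 24 arrays. After the filter on low signals, 76 were tested, 32 of complex I, 4 of complex II, 8 of complex III, 15 of complex IV and 17 of complex V. The other 3, *Ndufa4l2*, *Cox7b2* and *Cox8b*, had mean signals of 8.95, 2.71 and 6.97 over the 24 arrays and were not tested. *Ndufa4* was counted with complex I because of its symbol, although its protein is now placed in complex IV.

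Double mutant mice (TLX1) carried an *IgHμ-TLX1* transgene (human TLX1, formerly HOX11) on a *Prkdc* Scid/Scid background, and control mice were *Prkdc* Scid/Scid without the transgene, so that the immunodeficient Scid mutation was shared by every sample. All mice were outbred ICR and 6 to 8 weeks old per the labels, although the study's methods include younger animals too, and were described as negative for B220 and CD3. Per genotype 4 cohorts, written here as pools 1 to 4, were made from 2 to 5 mice of 1 sex, female in TLX1 pools 1 and 4 and control pools 2 and 4. CD4 and CD8 double negative thymocytes of each pool were sorted into DN1 (CD44+CD25-), DN2 (CD44+CD25+) and DN3 (CD44-CD25+) cells, and each fraction was hybridised to 1 array, which gave 4 arrays in each of the 6 groups. The *IgHμ* promoter that drives the transgene acts mainly in B cells and is leaky in thymocytes. The double mutant line was made by breeding CD1 transgenic mice to CB17 ICR Scid mice. By the study's methods, double mutant and Scid mice were then mated, and the cohorts were taken from their genotyped offspring. Scid thymocytes do not complete antigen receptor rearrangement, so development does not pass far beyond DN3 in these mice. By the study's account of the sorts, control pool 3 and TLX1 pool 2 held many cells outside the gates. The same account gives ages that differ between pools. TLX1 pools 1 and 2 and control pool 2 included mice younger than 6 weeks, whereas pool 4 of both genotypes held only mice older than 6 weeks.

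Oxidative phosphorylation couples the transfer of electrons from NADH and succinate to oxygen, through complexes I to IV of the mitochondrial inner membrane, with the synthesis of ATP by complex V. Most of the subunits are encoded in the nucleus and imported, and a few are encoded by mitochondrial DNA. Several subunits of complex IV, cytochrome c oxidase, exist as paired isoforms, one that most tissues use and another that is typical of heart and skeletal muscle, lung or testis. Early thymocytes proliferate at DN2 and leave the cell cycle at DN3 until the pre-TCR is formed.

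The surface marker genes of the sort changed between the fractions, although *Cd44* was already much lower at DN2 and *Il2ra* was not absent at DN1. *Cd44* had signals of 892 to 1913 at DN1, 80.3 to 153 at DN2 and 9.52 to 29.0 at DN3, and *Il2ra*, which encodes CD25, of 488 to 1171, 4270 to 5518 and 4323 to 5541. Some T lineage genes varied widely among the DN1 arrays. *Ptcra* had signals of 20.8 to 1296 at DN1 and 442 to 933 at DN2. *Rag1* had 35.5 to 3769 at DN1, 1075 to 1541 at DN2 and 2170 to 3425 at DN3. *Rag2*, at 8.60 to 204 at DN1, stayed below its DN2 signals of 304 to 530. Marker genes of some other cell types were high at DN1. The summed signal of 8 natural killer genes was 13344 to 31432 in the control DN1 pools against 4252 to 5668 at DN2, and 16993 to 27057 against 4580 to 5313 in TLX1 pools. That of 11 myeloid and dendritic genes was 16831 to 20116 against 1085 to 1211 in control pools and 5034 to 39838 against 1056 to 1671 in TLX1 pools. Of the genes that passed the filter, 8 of 8 natural killer, 10 of 10 myeloid and dendritic and 4 of 5 mast and basophil genes were lower at DN2 than at DN1, while 7 of 8 T lineage genes were higher. The B lineage and thymic epithelium lists were instead higher at DN2. The summed signal of 8 B lineage genes was 240 to 546 in control pools at DN1 against 703 to 796 at DN2, with *Vpreb1* higher and *Blnk* lower at DN2. In TLX1 pools it was 390 to 578 against 540 to 781, with overlap. That of 5 thymic epithelium genes was 111 to 168 against 560 to 734 in control pools and 129 to 196 against 507 to 776 in TLX1 pools, mainly through *Epcam*. Of 4 erythroid genes, only *Epor* passed the filter. The part of this change of cells in the DN1 to DN2 differences below was not tested, and in these bulk samples fewer cells of a type and less RNA per cell cannot be told apart.

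From DN1 to DN2 more oxidative phosphorylation genes rose than fell. Averaged over both genotypes, 36 of the 76 genes were called higher and 5 lower at an adjusted p under 0.05 (limma, 8 pools, each compared with itself), where 28.5% of all 27022 probe sets tested were called higher and 31.2% lower. The median log2 fold change was 0.19 over the 76 genes and -0.06 over all probe sets tested. Complexes I, III and V carried most of the rise, with 15, 6 and 10 genes higher and 3, 0 and 0 lower, and with median log2 fold changes of 0.20, 0.21 and 0.26. In complex II, 2 of 4 genes were higher (median 0.17). Complex IV stood at a median of -0.02, with 3 genes higher and 2 lower. Within pools, the median change of the 76 genes was above 0 in 7 of 8 pools and ran from -0.05 in control pool 2, the exception, to 0.30 in TLX1 pool 4. Of the 76 genes, 21 were higher at DN2 in all 8 pools and 2 lower in all 8 (17.1% and 19.7% of all probe sets tested). In control pools alone 22 genes were called higher and 3 lower (21.9% and 22.8% of all), and in TLX1 pools 29 and 3 (22.8% and 25.1%). The difference between the genotypes in this step was itself tested, and was called for 0 of the 76 genes and 0% of all probe sets (limma interaction). At an unadjusted p under 0.05 it held 0 of the 76 genes, against 3.6% of all. After quantile normalization 32 genes were called higher and 4 lower (34.5% and 24.2% of all probe sets), and the median of the genes was 0.14 and that of all probe sets 0.094, so that the genes stood less far above the rest of the array than with the deposited scaling. Median centring of the arrays, which moved the median of all probe sets to 0.29 and that of the genes to 0.54, gave 68 genes higher and 1 lower (47.1% and 16.6% of all).

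A measure of RNA quality also moved with this step. Each array has control probe sets at the 3' end and the 5' end of *Actb* and *Gapdh*, and their log2 difference, averaged over both genes, served as a 3'/5' index. Its mean went from 0.057 to 0.22 in TLX1 pools and from 0.26 to 0.52 in control pools, and it was higher at DN2 in 6 of 8 pools. The rise of the control mean came mainly from control pool 3, which went from 0.038 to 0.99. Control pool 4 went from 0.33 to 0.44, and control pools 1 and 2 from 0.25 to 0.24 and from 0.41 to 0.40. With the index as a covariate, 30 genes were called higher and 7 lower from DN1 to DN2 (29.4% and 29.7% of all probe sets), with a median of 0.13 against -0.05 for all. From DN2 to DN3 the index rose in 3 of 8 pools, and the covariate left 0 genes higher and 15 lower (9.58% and 6.11% of all).

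**Figure D1:**
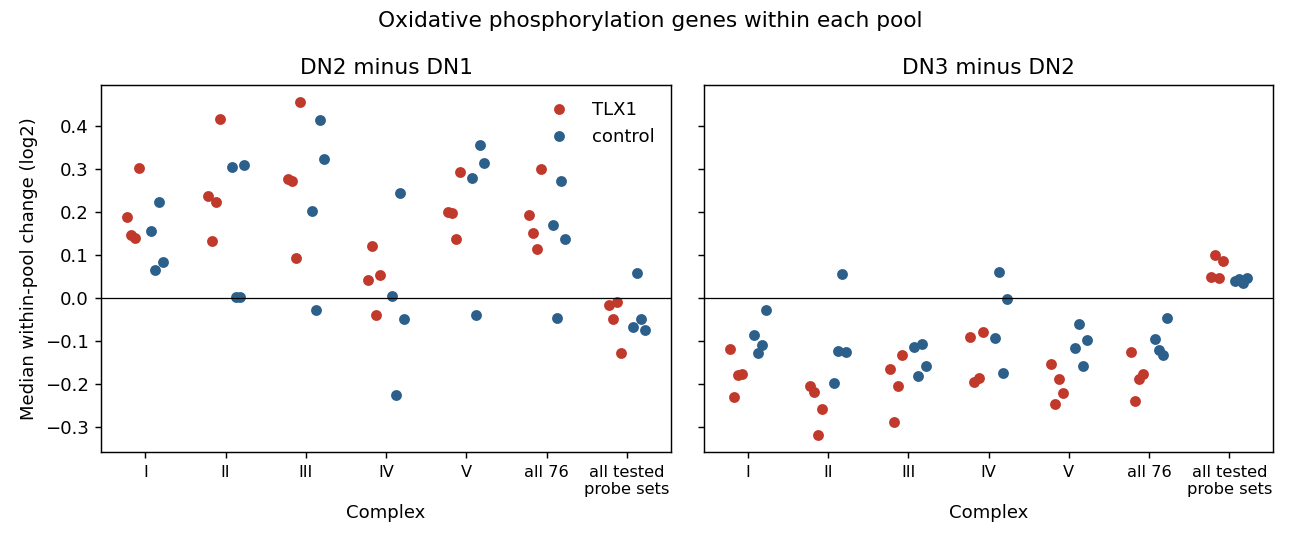
Median change in log2 signal within each pool (vertical axis) over the tested genes of each complex, over all 76 genes and over all 27022 probe sets tested (horizontal axis), for DN2 minus DN1 and DN3 minus DN2. Each point is 1 of 4 TLX1 (red) or 4 control (blue) pools. Over the 76 genes the DN2 minus DN1 medians ran from -0.05 to 0.30, and all 8 of the DN3 minus DN2 medians lay below 0, while those of all probe sets lay above 0.

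Within complex I, NADH dehydrogenase, the largest rise was that of *Ndufb1*, a small accessory subunit of the membrane arm. Its signal was 79.9, 60.3, 75.4 and 59.4 in control pools 1 to 4 at DN1 and 227, 174, 235 and 160 at DN2. In TLX1 pools it was 85.4, 68.8, 59.0 and 49.1 at DN1 and 193, 222, 199 and 173 at DN2. All 8 DN2 arrays were above all 8 DN1 arrays, and the mean fold change was 2.96 (log2 1.57, standard error 0.083, adjusted p = 2.34e-09). *Ndufv2*, an iron-sulfur subunit of the module that oxidises NADH, rose 1.53-fold (log2 0.61, standard error 0.074, adjusted p = 6.4e-06). Its signals were 1801, 2043, 2207 and 1495 in control pools at DN1 and 2985, 2605, 2984 and 2665 at DN2, and 1585, 2011, 1771 and 1628 against 2537, 3001, 2423 and 2867 in TLX1 pools. The lowest DN2 value lay above the highest DN1 value. The other 2 probe sets of *Ndufv2* that passed the filter gave log2 fold changes of 0.60 and 0.59.

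The 3 genes of complex I that fell from DN1 to DN2 were *Ndufv3*, *Ndufa13* and *Ndufa1* (the last named after its value was seen). *Ndufv3*, a small subunit of the same NADH-oxidising module as *Ndufv2*, fell 1.43-fold (log2 -0.51, standard error 0.090, adjusted p = 0.000205). It had signals of 2525, 2951, 1829 and 2919 in control pools at DN1 and of 1609, 1915, 1950 and 1515 at DN2, and of 2036, 2031, 2140 and 2676 against 1516, 1566, 1407 and 1816 in TLX1 pools. Control pool 3 was the exception, since its DN2 value was the higher one. *Ndufa13*, also known as GRIM-19 and needed for complex I assembly, fell 1.27-fold in the same comparison (log2 -0.35, standard error 0.094, adjusted p = 0.00539), in 6 of 8 pools. *Ndufa1* had a log2 fold change of -0.19 (adjusted p = 0.0264).

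In complex II, succinate dehydrogenase, the flavoprotein subunit gene *Sdha* rose 1.25-fold from DN1 to DN2 in all 8 pools (log2 0.32, standard error 0.059, adjusted p = 0.000276). *Sdhc*, which encodes a membrane anchor, rose 1.19-fold in 7 of 8 pools (log2 0.25, standard error 0.063, adjusted p = 0.00311). The iron-sulfur subunit gene *Sdhb* and the other anchor gene *Sdhd* had log2 fold changes of 0.07 and 0.09 (adjusted p = 0.474 and 0.394), with 5 and 4 of 8 pools higher at DN2. The *Sdhc* signals separated by pool more than by stage. Control pools 1 to 4 had 795, 851, 817 and 328 at DN1, followed by 1034, 926, 747 and 409 at DN2 and by 943, 843, 867 and 401 at DN3. In TLX1 pools they were 775, 836, 796 and 361, then 1027, 1031, 958 and 458, then 925, 934, 927 and 407. Pool 4 was the lowest of its 4 pools at each stage of each genotype, and its highest value, 458, lay below the lowest value of any other pool, 747. The dimmer *Sdhc* probe set was also lowest in pool 4 in 6 of 6 groups, at 184 to 257 against 256 to 434 in the other pools.

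*Sdha* was likewise lowest in pool 4 in 6 of 6 groups, at 828 to 1242 against 1222 to 1676. A further *Sdha* probe set, with a mean signal of 1200, went the other way, with pool 4 highest in 5 of 6 groups. The dimmer *Sdhd* probe set was highest in pool 4 in all 6 groups (253 to 345 against 60.5 to 169), which its brighter probe set was not. Over the 76 genes, pool 4 was the lowest pool in all 6 groups in 6 genes (5.63% of all probe sets tested) and the highest in all 6 in 6 genes (5.6%). In at least 5 of 6 groups it was lowest in 10 genes (11% of all) and highest in 14 (11.7%), which are shares near those of the whole array. TLX1 pool 1 and control pool 2 were also female and did not share these values. By the study's account of the cohorts, the mice of pool 4 of both genotypes were older than those of TLX1 pool 1 and control pool 2. What sets pool 4 apart, sex and age included, was not tested.

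**Figure D2:**
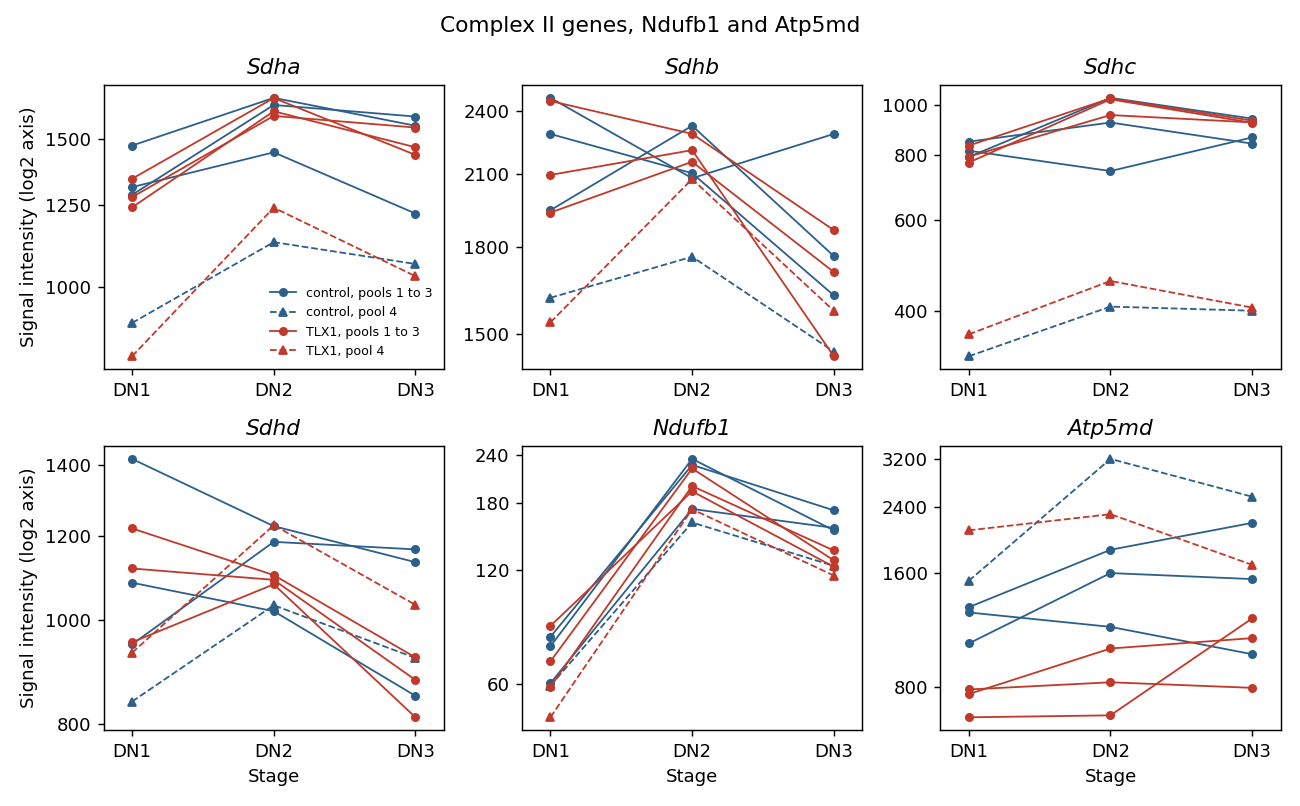
Signal intensity (vertical axis, log2 scale) of the complex II genes, *Ndufb1* and *Atp5md* at DN1, DN2 and DN3 (horizontal axis). Each line joins the 3 arrays of 1 pool, in red for TLX1 and blue for control, with pool 4 dashed. Pool 4 of both genotypes lies below all other pools in *Sdhc*, and every line of *Ndufb1* rises from DN1 to DN2.

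In complex III, cytochrome bc1, 6 of 8 genes rose from DN1 to DN2 and none was lower. *Uqcr11*, a small supernumerary subunit, rose most, by 1.55-fold (log2 0.63, standard error 0.064, adjusted p = 1.07e-06). Its signals were 1349, 1457, 1624 and 1241 in control pools at DN1 and 2115, 2011, 2306 and 2117 at DN2, and 1177, 1413, 1239 and 1230 against 1886, 2092, 1816 and 2261 in TLX1 pools. No DN2 array overlapped with a DN1 array of either genotype. In complex V, ATP synthase, the 10 genes that rose included *Atp5g1*, which encodes subunit c of the rotor ring. *Atp5g1* rose 1.42-fold in 8 of 8 pools (log2 0.51, standard error 0.059, adjusted p = 4.33e-06).

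Complex IV held both the largest rise and the largest fall of all 76 genes, each in an isoform that is typical of other tissues. *Cox6b2*, the testis isoform of subunit VIb, had signals of 94.3, 102, 344 and 31.9 in control pools 1 to 4 at DN1, of 1862, 1863, 1968 and 855 at DN2 and of 2544, 2952, 1698 and 1209 at DN3. In TLX1 pools they were 227, 149, 50.8 and 58.7 at first, 1496, 1628, 1543 and 566 at DN2 and then 2074, 1766, 1687 and 975. Every pool was higher at DN2 than any pool at DN1, and pool 4 was the lowest pool of its genotype at DN2 and DN3. The DN2 against DN1 change was 13.6-fold (log2 3.76, standard error 0.29, adjusted p = 6.9e-08). *Cox6b1*, the isoform that most tissues use, had signals of 4717 to 6102 and 5148 to 5919 in control pools at DN1 and DN2, with a log2 fold change of 0.02 over both genotypes (adjusted p = 0.78).

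*Cox6a2*, the isoform of subunit VIa found in heart and skeletal muscle, went the opposite way. It had signals of 190, 183, 135 and 144 in control DN1 pools, of 31.5, 21.6, 25.8 and 13.3 in the DN2 pools and of 22.4, 31.9, 21.4 and 18.2 in the DN3 pools. TLX1 pools gave 185, 120, 242 and 218, then 18.6, 16.3, 24.5 and 22.5, then 29.2, 22.5, 19.9 and 21.3. The lowest DN1 value, 120, lay far above every later value, and the fall was 8.18-fold (log2 -3.03, standard error 0.15, adjusted p = 1.22e-09). The later signals lay near the median signal of the arrays, and with an offset of 32 added before the log2 transformation the fall was 3.84-fold (log2 -1.94). The call held in 20 of 20 alternatives, and the size of the fold depends on the handling of low signals. *Cox6a1*, its widely used counterpart, had signals of 4866 to 7990 at DN1 and a log2 fold change of -0.11 (adjusted p = 0.294). Its other bright probe set, with a mean signal of 2731, was called lower at DN2 (log2 -0.21, adjusted p = 0.0202).

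Among the other isoforms of complex IV, *Cox7a1*, the heart and muscle form of subunit VIIa, rose 1.38-fold at a low signal, from 28.7 to 42.0 at DN1 to 37.4 to 61.0 at DN2 (log2 0.47, adjusted p = 0.000894). *Cox7a2l*, a relative of subunit VIIa that joins complexes III and IV, rose 1.14-fold (log2 0.19, adjusted p = 0.0244). That call was lost in 11 of 20 alternatives, while its other probe sets were also called, with log2 fold changes of 0.24 and 0.28 (adjusted p = 0.00214 and 0.00151). *Cox8c*, the testis form of subunit VIII, fell 1.39-fold in 8 of 8 pools (log2 -0.47, adjusted p = 0.000674), from 48.0 to 70.2 down to 35.8 to 52.6, a call that was lost in 4 of 20 alternatives. *Cox4i1*, *Cox7a2* and *Cox8a*, the forms that most tissues use, had log2 fold changes of 0.05, -0.03 and -0.03 (adjusted p of 0.485, 0.704 and 0.715). *Cox4i2*, the lung isoform of subunit IV, lay near the floor at 1.22 to 24.9 on all 24 arrays, with a log2 fold change of -0.02 and a standard error of 0.45. *Cox7b2* and *Cox8b* had signals of 0.104 to 9.79 and 0.879 to 21.2 and were not tested.

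**Figure D3:**
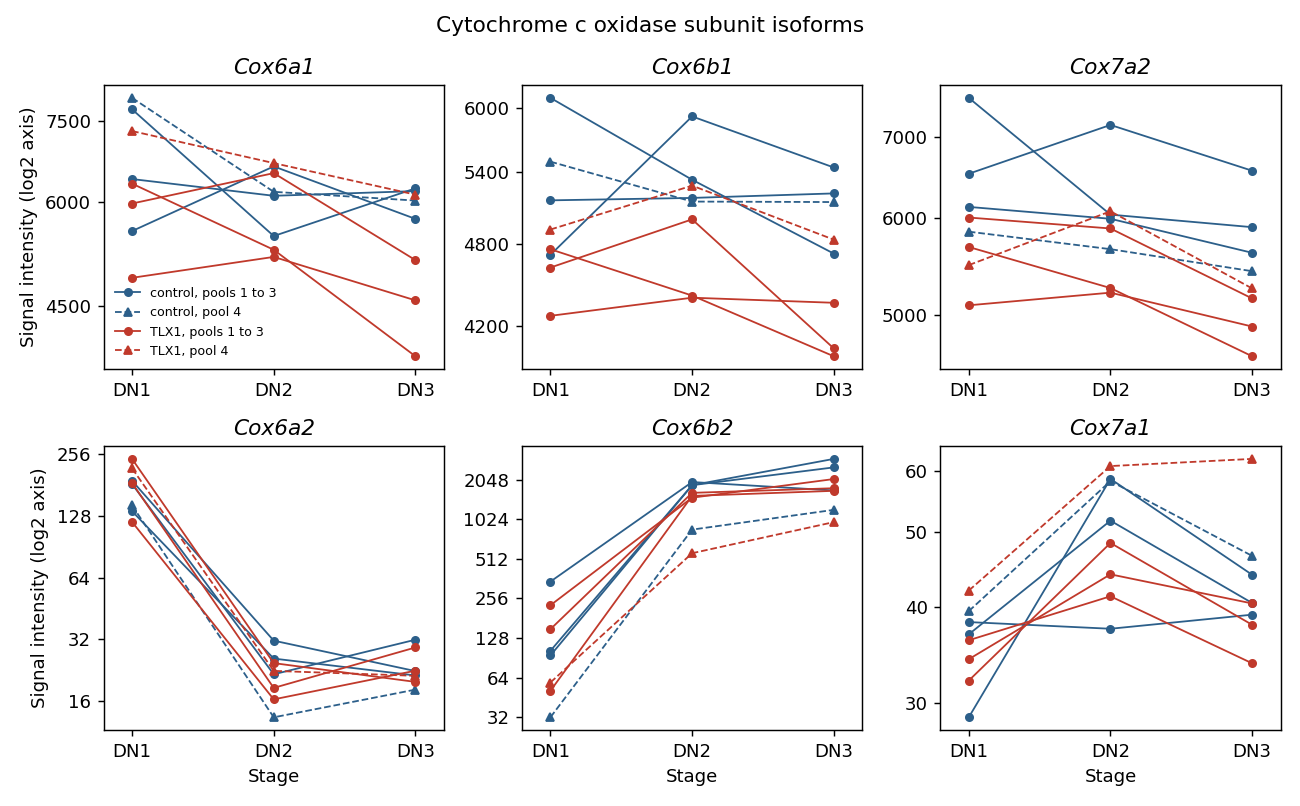
Signal intensity (vertical axis, log2 scale) of 3 widely used isoforms of cytochrome c oxidase (upper row) and of their counterparts typical of heart and muscle or testis (lower row) at DN1, DN2 and DN3 (horizontal axis). Each line is 1 pool, in red for TLX1 and blue for control, with pool 4 dashed. *Cox6a2* falls and *Cox6b2* rises from DN1 to DN2 in all 8 pools, by 8.18-fold (3.84-fold with an offset of 32) and 13.6-fold.

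Promoter windows of 64 of the 79 genes were available from RefSeq (GRCm38.p6), each from 250 bases before to 50 after the start of transcription. They were searched on both strands for 4 motifs of factors that are known to act on nuclear genes of mitochondria or of growth. GCGCATGC, the core of the NRF1 motif, was found in 9 of 64 (14.1%, against 3.05% of all 27025 genes with a window), the ETS motif CCGGAAG in 17 (26.6% against 9.93%), the YY1 motif AAGATGGCG in 5 (7.81% against 1.64%) and the E-box CACGTG in 6 (9.38% against 8.09%). No matches to different motifs overlapped in these windows. Of the genes with the motif that were tested, 4 of 9, 6 of 17, 2 of 5 and 5 of 6 were called higher at DN2 than at DN1, against 29 of 62 tested genes that had a window. A match is a sequence and was not shown to be a binding site. The 250 bases before the start are given for the widely used *Cox6a1* and *Cox6b1*, for *Cox6b2* with its 13.6-fold rise, and for *Ndufb1* and *Uqcr11*, which rose most in complexes I and III, with motif matches in capitals. All 5 genes lie on the minus strand and are written 5′ to 3′ along the gene. *Cox6a1* holds NRF1 and ETS matches and *Cox6b1* and *Uqcr11* each hold 1 ETS match before the start. *Uqcr11* also counts among the 9 genes with the NRF1 motif, through a match that is not within the printed bases. The windows of *Cox6b2* and *Ndufb1* hold none of these letters.
Cox6a1, chr5:115348959-115349208: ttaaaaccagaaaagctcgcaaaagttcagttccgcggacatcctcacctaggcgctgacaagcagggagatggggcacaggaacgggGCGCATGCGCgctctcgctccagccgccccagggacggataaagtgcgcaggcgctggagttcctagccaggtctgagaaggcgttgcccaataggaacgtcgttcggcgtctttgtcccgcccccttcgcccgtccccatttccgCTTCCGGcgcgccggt
Cox6b1, chr7:30626115-30626364: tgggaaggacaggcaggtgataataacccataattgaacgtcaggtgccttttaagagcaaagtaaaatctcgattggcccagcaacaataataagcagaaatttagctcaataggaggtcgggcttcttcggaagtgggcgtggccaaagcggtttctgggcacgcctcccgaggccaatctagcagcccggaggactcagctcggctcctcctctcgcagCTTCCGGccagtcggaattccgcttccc
Cox6b2, chr7:4753095-4753344: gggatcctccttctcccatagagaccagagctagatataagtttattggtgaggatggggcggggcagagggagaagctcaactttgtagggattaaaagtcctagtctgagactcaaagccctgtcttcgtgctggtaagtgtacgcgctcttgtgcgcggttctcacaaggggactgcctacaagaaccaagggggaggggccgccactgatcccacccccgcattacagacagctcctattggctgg
Ndufb1, chr12:101975739-101975988: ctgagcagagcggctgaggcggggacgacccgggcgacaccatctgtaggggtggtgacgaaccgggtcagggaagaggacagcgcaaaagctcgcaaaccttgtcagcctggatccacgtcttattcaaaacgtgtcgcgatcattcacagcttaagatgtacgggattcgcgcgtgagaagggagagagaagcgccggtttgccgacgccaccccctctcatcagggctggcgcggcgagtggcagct
Uqcr11, chr10:80406822-80407071: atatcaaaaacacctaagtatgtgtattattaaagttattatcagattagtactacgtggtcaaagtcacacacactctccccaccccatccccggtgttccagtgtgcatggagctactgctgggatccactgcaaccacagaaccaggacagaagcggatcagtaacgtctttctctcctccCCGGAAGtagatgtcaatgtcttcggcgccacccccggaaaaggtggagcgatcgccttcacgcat

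From DN2 to DN3 the direction turned. Over both genotypes 0 of the 76 genes were called higher and 12 lower, against 6.93% of all probe sets higher and 4.07% lower. The median log2 fold change was -0.13 over the 76 genes and 0.08 over all probe sets tested, and the median change of the genes within a pool was below 0 in 8 of 8 pools (-0.24 to -0.05). In all 8 pools 27 of the 76 genes were lower at DN3, against 6.75% of all probe sets, and 0 were higher in all 8, against 9.7%. The falls were spread over the complexes, with 4 in complex I, 1 in II, 2 in III, 2 in IV and 3 in V. The count rested on the full set of pools. Without any 1 pool other than control pool 3 it was 2 to 4, without control pool 3 it was 14, and after quantile normalization it was 3 (4.16% of all probe sets lower).

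*Ndufb1*, which had risen most in complex I, also fell most from DN2 to DN3, by 1.44-fold (log2 -0.52, standard error 0.083, adjusted p = 0.00169). Its DN3 signals were 172, 155, 152 and 123 in control pools and 122, 127, 135 and 116 in TLX1 pools. Each pool was lower than at DN2, and all 8 arrays were still above every DN1 array. *Atp5g1* fell 1.24-fold (log2 -0.31, standard error 0.059, adjusted p = 0.00474). Its signals were 1683, 1609, 1761 and 1821 in control pools at DN2 and 1482, 1259, 1616 and 1676 at DN3, and 1605, 1762, 1502 and 2117 against 1245, 1205, 1147 and 1568 in TLX1 pools. The fall was seen in 8 of 8 pools, although the ranges of the stages overlapped.

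*Sdhb* fell 1.25-fold in 7 of 8 pools (log2 -0.32, standard error 0.084, adjusted p = 0.0258), a call that was lost in 9 of 20 alternatives. It had signals of 2327, 2105, 2083 and 1764 in control pools at DN2 and of 1767, 1626, 2287 and 1444 at DN3, and of 2156, 2287, 2210 and 2079 against 1708, 1866, 1430 and 1574 in TLX1 pools. Control pool 3 was the pool that was higher at DN3. *Uqcrq*, a small subunit of complex III, fell 1.20-fold in 8 of 8 pools (log2 -0.27, standard error 0.074, adjusted p = 0.035), while its 2 dimmer probe sets, with mean signals of 27.1 and 15.9, gave log2 fold changes of 0.35 and 0.14 (adjusted p = 0.259 and 0.84). The *Uqcrq* call was lost in 12 of 20 alternatives and turned in 2 others, both of which brought in the dimmer probe sets. *Sdha*, *Sdhc* and *Sdhd* had log2 fold changes of -0.15, -0.07 and -0.22 (adjusted p of 0.123, 0.464 and 0.107). In complex IV, *Cox8a* fell by a log2 fold change of -0.25 (adjusted p = 0.028). The call was lost in 10 of 20 alternatives, and a second probe set of *Cox8a* was also called lower (log2 -0.30, adjusted p = 0.00993). *Cox6a2* and *Cox6b2* had log2 fold changes of 0.12 and 0.36 (adjusted p = 0.621 and 0.43). The remaining isoforms *Cox4i1*, *Cox4i2*, *Cox6a1*, *Cox6b1*, *Cox7a1*, *Cox7a2*, *Cox7a2l* and *Cox8c* lay between -0.25 and 0.13, none of them called.

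In control pools alone 0 genes were called from DN2 to DN3 (0.485% and 0.788% of all probe sets higher and lower) and 5 had an unadjusted p under 0.05, all lower (at that p, 5.28% of all were lower and 8.54% higher). In TLX1 pools alone 2 were called lower and 0 higher (1.18% and 1.85% of all) and 26 had an unadjusted p under 0.05, all lower (6.73% of all lower and 13.9% higher). The median log2 fold change was -0.09 in control and -0.18 in TLX1 pools. The difference between the genotypes was called for 0 of 76 genes (0% of all probe sets), and at an unadjusted p under 0.05 held 1 of 76 (2.89% of all). This was *Ndufa3*, whose change was 0.04 in control and -0.28 in TLX1 pools (limma interaction, adjusted p = 1.0).

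**Figure D4:**
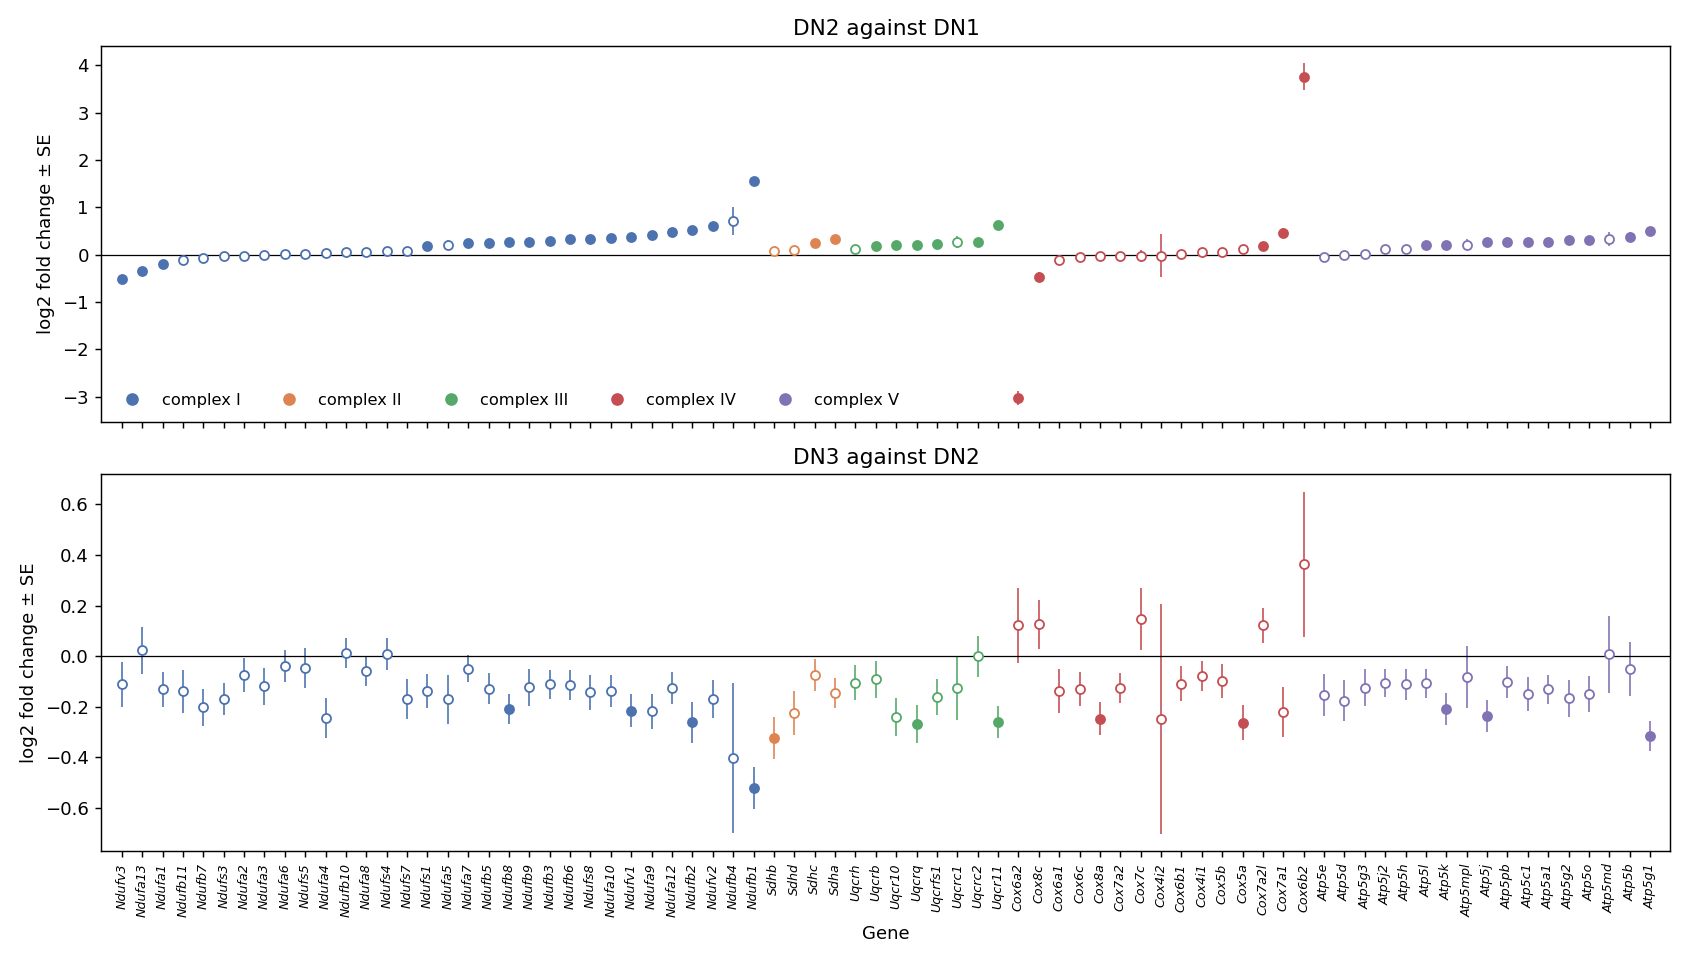
Log2 fold change with its standard error (vertical axis) of each of the 76 genes (horizontal axis, ordered by complex and by the DN2 against DN1 value), averaged over both genotypes. Filled points passed an adjusted p under 0.05. From DN1 to DN2 36 filled points lie above 0 and 5 below, with *Cox6b2* at 3.76 and *Cox6a2* at -3.03, and from DN2 to DN3 all 12 filled points lie below 0, on a narrower axis.

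Over the whole interval from DN1 to DN3 the genes as a group ended near their starting level. The median log2 fold change was 0.05 over the 76 genes and 0.04 over all probe sets tested, with 21 genes called higher and 14 lower (30.1% and 25% of all probe sets). In control pools alone they were 10 and 4 (22.4% and 20.3%) and in TLX1 pools 9 and 5 (23.2% and 19.2%), and the interaction held 0 genes at an adjusted or an unadjusted p under 0.05 (0% and 3.23% of all). Without control pool 4 the counts over both genotypes were 13 and 9. They moved with the scaling, to 23 and 11 after quantile normalization (34.1% and 23.1% of all probe sets) and to 39 and 2 after median centring (42% and 17.8%), which moved the median of all probe sets to 0.23. With the 3'/5' index in the fit they were 16 and 17 (31.7% and 25.1%). The complexes differed in these counts, with 4 genes higher and 0 lower in complex V, 2 and 0 in complex III, 10 and 7 in complex I, 2 and 1 in complex II and 3 and 6 in complex IV. The difference between complexes was not tested. The 6 genes of complex IV that were lower at DN3 than at DN1 included *Cox6a1* (log2 -0.25, adjusted p = 0.0249), *Cox7a2* (log2 -0.15, adjusted p = 0.0422) and *Cox8a* (log2 -0.28, adjusted p = 0.00226), besides *Cox6a2* and *Cox8c*. *Cox6b2* ended 17.5-fold above its DN1 level (log2 4.13, adjusted p = 2.55e-08).

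Further gene lists of the mitochondria were counted in the same way, for which the shares of all probe sets were again 28.5% higher and 31.2% lower. Of 16 other respiratory chain subunits and electron carriers, 10 were higher and 1 lower at DN2 than at DN1 (median log2 fold change 0.38), among them *Ndufab1*, the mitochondrial acyl carrier protein (log2 0.65), and *Etfb*, a subunit of the electron transfer flavoprotein (log2 0.64). Of 45 assembly factors 18 were higher and 3 lower, including *Nubpl*, which delivers iron-sulfur clusters to complex I (log2 1.02), and *Atpaf1*, an assembly factor of ATP synthase (log2 1.01). Of 13 genes of the tricarboxylic acid cycle 7 were higher and 1 lower, with *Idh2* the steepest of the 4 with the smallest p (log2 2.21), and of 20 genes of mitochondrial protein import 14 were higher and 0 lower. Of 19 genes for the expression of mitochondrial DNA 9 were higher and 1 lower, the latter *Polg*, the catalytic subunit of the mitochondrial DNA polymerase (log2 -1.49). Of 12 regulators of mitochondrial biogenesis 6 were higher and 3 lower, with *Gabpb1*, a partner of an ETS factor, at 0.73 and the nuclear receptor gene *Esrra* at -0.76. Among these mitochondrial lists, the ribosomal protein genes had the largest share called higher, 64 of 76 higher and 5 lower with a median of 0.40, whereas of 48 cytosolic ribosomal protein genes 6 were higher and 3 lower with a median of -0.02. All 21 proliferation genes were higher at DN2 (median 0.92).

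From DN2 to DN3, where 6.93% of all probe sets were higher and 4.07% lower, 4 of the 16 other subunits and carriers were lower, 4 of the 45 assembly factors, 4 of the 13 cycle genes, 5 of the 20 import genes and 6 of the 76 mitochondrial ribosomal protein genes, and none of these was higher. In the mitochondrial DNA expression list 2 were higher and 2 lower, and in the biogenesis regulators none was called. The proliferation genes had a median of -0.51 with 1 of 21 called lower and 16 of 21 at an unadjusted p under 0.05. These lists share no genes with the 76, and their part in the change of the 76 was not tested.

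Between genotypes, 0 of the 76 genes were called at DN1, DN2 or DN3 (limma, 4 TLX1 against 4 control pools; 0.0037%, 0.0037% and 0.0185% of all probe sets were called). At an unadjusted p under 0.05, 0, 0 and 7 genes were found, against 1.72%, 3.53% and 6.02% of all probe sets, the 7 all lower in TLX1 (0.699%, 2.07% and 1.79% of all probe sets were lower at that p). The unpaired test of the methods with Benjamini-Hochberg adjustment also called 0 at each stage. The values leaned one way in the deposited scaling. The log2 fold change of TLX1 against control was below 0 for 67, 60 and 68 of the 76 genes at DN1, DN2 and DN3 (48.5%, 53% and 48.4% of all probe sets), and its median was -0.15, -0.096 and -0.17, where all probe sets had 0.0081, -0.017 and 0.0090. The 3 comparisons use the same pools and are not independent. All TLX1 values lay below all control values for 2, 1 and 12 of the 76 genes (0.529%, 1.35% and 1.25% of all probe sets) and above them for 0 at each stage (0.725%, 1.39% and 2.64%).

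At DN3 the medians of complexes I to V were -0.14, -0.04, -0.21, -0.24 and -0.25. The smallest p at that stage was that of *Ndufa3*, an accessory subunit of complex I, with signals of 4162, 3825, 3115 and 3794 in control pools and of 2712, 2728, 2591 and 3054 in TLX1 pools. These did not overlap (log2 -0.42, standard error 0.14, adjusted p = 0.686). *Atp5mpl*, a small membrane subunit of ATP synthase, had signals of 3118, 2448, 2922 and 3153 against 2024, 2008, 2189 and 2452 in TLX1 pools, where the lowest control value and the highest TLX1 value crossed (log2 -0.42, adjusted p = 0.709). *Atp5e*, the epsilon subunit of the central stalk, had 3385, 3263, 3235 and 3288 against 2555, 2796, 2493 and 2773, without overlap (log2 -0.31, adjusted p = 0.753).

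At DN1 the smallest p values were those of *Ndufa5*, *Uqcr10* and *Uqcrb*, with log2 fold changes of -0.32, -0.25 and -0.29 and standard errors of 0.16 to 0.17 (adjusted p = 1.0 for each after rounding). *Uqcrb*, a small subunit of complex III, had signals of 7177, 8883, 6430 and 7034 in control DN1 pools and of 5398, 5976, 6173 and 6463 in TLX1 pools, which overlapped at 1 control pool. At DN2 they were those of *Cox4i2*, *Cox8c* and *Atp5md* (log2 -1.12, -0.27 and -0.77). *Cox4i2* lay near the floor, and *Atp5md*, a small membrane subunit of ATP synthase, had signals of 1601, 1153, 1845 and 3211 in control and of 1011, 823, 672 and 2293 in TLX1 DN2 pools, with pool 4 the highest in both genotypes. The *Sdha*, *Sdhb*, *Sdhc* and *Sdhd* differences ranged from -0.09 to 0.01 at DN1, from 0.02 to 0.17 at DN2 and from -0.15 to 0.06 at DN3.

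RNA quality moved with genotype as well. At DN1 the 3'/5' index was -0.02 to 0.15 in TLX1 pools against 0.04 to 0.41 in controls, and at DN2 0.12 to 0.37 against 0.24 to 0.99. At DN3 it was 0.10 to 0.34 against 0.50 to 0.57, without overlap. With the index as a covariate the median difference of the 76 genes was -0.07, -0.0082 and 0.0030 at DN1, DN2 and DN3, and 53, 44 and 37 of them lay below 0. Genotype and index are partly confounded, most of all at DN3. After median centring, the median at DN2 was 0.0065 against 0.085 for all probe sets, and at DN1 and DN3 it was -0.17 and -0.19. Cytosolic ribosomal protein genes also had medians below 0, at -0.21, -0.19 and -0.31.

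**Figure D5:**
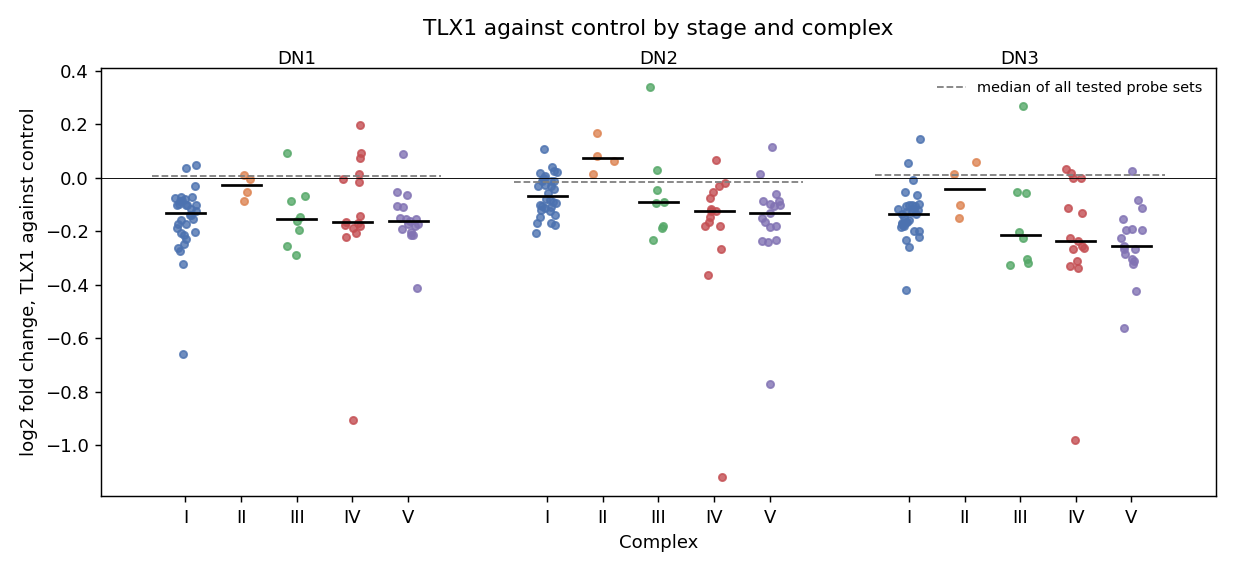
Log2 fold change of TLX1 against control (vertical axis) for each of the 76 genes at DN1, DN2 and DN3, by complex (horizontal axis). Each point is 1 gene, black bars are the medians of a complex and dashed grey lines the median of all 27022 probe sets tested. Most points lie below 0 at each stage (67, 60 and 68 of 76), and none passed the adjusted test.

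How far the 76 genes varied together within the groups of 4 pools was described by pairwise correlation. Over the 24 arrays, each taken as the deviation from its group mean, the median pairwise correlation was 0.28 over 2850 pairs, 0.31 within a complex and 0.28 between complexes. This is a description across arrays that share pools. The value for all probe sets tested was not computed, so these correlations cannot be called high or low for the array. *Uqcrc1* had the lowest median correlation with the other genes (-0.30), followed by *Cox6b2* (-0.27), *Sdhc* (-0.26) and *Sdha* (-0.25). In each of these 4 genes pool 4 was the lowest pool in at least 5 of 6 groups. Of the 76 genes, 44 had further probe sets that passed the filter. In 4 of them, *Cox5b*, *Ndufa12*, *Ndufs8* and *Sdha* (named after their values were seen), probe sets of the same gene were called in opposite directions from DN1 to DN2, in each case through a dim probe set with a mean signal of 20.9 to 72.6 that was lower at DN2. From DN2 to DN3 no gene had probe sets called in opposite directions.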

How the data were processed

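The values are deposited signal intensities of 24 Affymetrix mouse arrays, which the authors made with MAS5, and the submitters' processing notes also name Affymetrix Expression Console. The deposited intensities had a trimmed mean (2% cut at each end) of 150 on every array, and no other normalization was added for the main results. Values under 1, 4.39% to 11.3% of probe sets per array, were set to 1 and log2 transformed. The 60% of 45037 non-control probe sets with the highest mean were tested (27022, geometric mean signal of at least 9.02). Probe sets were named from the platform annotation, and 9 probe sets that name a gene of the list together with others were left out. Genes and gene lists were chosen with earlier results of these data known.

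Stages were compared with limma 3.58.1 (R 4.3.3) on all 24 arrays, with pool as a block and genotype by stage terms. Genotypes were compared within a stage, 4 arrays against 4, without covariates. P-values were adjusted by Benjamini-Hochberg over all tested probe sets. In text, the genes named were the 4 largest rises and falls among called genes per stage step, the 3 smallest p per genotype comparison, complex II and the isoforms of cytochrome c oxidase. The number of arrays limits the precision. Replicate numbers were checked for pairing. The correlation of same-numbered pools ran from -0.34 to 0.48 and was over 0.1 in 6 of 12. For pool 4 it was 0.48, 0.40 and 0.37 at DN1, DN2 and DN3. TLX1 pool 4 was closest to control pool 4 at each stage, over all probe sets tested. No other number had such a match, so the genotypes were not paired in the main results. Alternatives were quantile normalization, median centring, an offset of 32 before the log2 transformation, no filter or a stricter one, an index or sex covariate, other probe set choices and leaving out pools. Plots used matplotlib 3.10.9.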

Additional observations from a re-analysis of the deposited data

Results flagged for a closer look

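Over 31 named genes and the median of the tested genes, 15 of 192 groups of 4 pools had a lowest or highest pool whose gap to the others exceeded Dixon's critical value, where chance flags about 1 in 20 groups. Pool 4 was the outlying pool in all but the last of those listed here.

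*Sdhc* had signals of 361, 458 and 407 in TLX1 pool 4 at DN1, DN2 and DN3, and of 328 and 401 in control pool 4 at DN1 and DN3, each the lowest of its group. *Sdha* was lowest in TLX1 pool 4 at DN1 (828) and DN2 (1242). *Cox6b2* was lowest in pool 4 at DN2 in both genotypes, at 566 in TLX1 and 855 in control. *Atp5md* was highest in TLX1 pool 4 at DN1 (2077, against 664 to 787 in the others), and *Sdhd* in TLX1 pool 4 at DN2 (1229).

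The genes below the filter gave 3 of these groups. *Cox7b2* read 1.73 in TLX1 pool 4 at DN2 and 8.51 in control pool 4 at DN1, where the other pools were at or below the floor. *Cox8b* read 21.2 in control pool 4 at DN2. The median log2 level of the tested genes at DN1 was 10.81 in TLX1 pool 1, against 10.96 to 10.98 in the other 3 TLX1 pools.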

How the results depend on the processing

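The called genes numbered 41, 12 and 35 at DN2 against DN1, DN3 against DN2 and DN3 against DN1. They were 69 and 33 for the first 2 steps after median centring, 3 for DN3 against DN2 after quantile normalization, 2 and 22 for the last 2 without a filter on low signals, and 9, 1 and 4 with the methods' 1.4-fold threshold. Leaving out each pool gave 34 to 43, 2 to 14 and 22 to 39. Without control pool 3 and TLX1 pool 2 together the counts were 38, 8 and 39. With no replicate block the counts were 27, 1 and 16, and with the pool as a random block 42, 10 and 33. Between genotypes and for the interaction, the count was 0 under every alternative, the replicate number as a block included.

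Of single genes, quantile normalization reversed *Sdhb* (-0.0012), *Cox4i2* (0.34) and *Cox6b1* (-0.010) at DN2 against DN1, and *Cox4i1* (0.0086), *Cox6a2* (-0.033) and *Cox8c* (-0.010) at DN3 against DN2. Median centring reversed *Cox4i2* (0.32), *Cox6a1* (0.24), *Cox7a2* (0.32) and *Cox8a* (0.31) in the first step, and *Cox6a2* (-0.030), *Cox7a2l* (-0.031) and *Cox8c* (-0.027) in the later one. The 3'/5' index covariate reversed *Cox4i1* (-0.017) and *Cox6b1* (-0.061). *Cox6b1* was -0.041 without control pool 3 and TLX1 pool 2, and ran from -0.028 to 0.059 without single pools (below 0 without control pool 3). Without single pools the DN2 against DN1 value of *Cox4i2* ran from -0.54 to 0.34 (above 0 without TLX1 pools 1, 2 or 4 or control pools 1 or 4), that of *Cox7a2* from -0.062 to 0.014 and that of *Cox8a* from -0.060 to 0.017 (both above 0 only without control pool 2). None of these genes was called in the step concerned. Taking the median over the probe sets of a gene, dim ones included, turned the called changes of *Sdha* (-0.054) at DN2 against DN1 and of *Atp5g1* (0.061) and *Uqcrq* (0.24) at DN3 against DN2, and *Cox8a* (0.043) at DN2 against DN1, which was not called. Leaving out _s_at and _x_at probe sets gave *Uqcrq* 0.35. The cause was not tested. Of all gene values under alternatives, 855 kept direction and side of the threshold, 57 were weaker, 9 stronger and 29 reversed. Signal near the floor limits *Cox4i2*, *Cox7b2* and *Cox8b*. It also limits *Ndufb4*, a tested gene of complex I with 1 probe set and a mean signal of 10.2 (named after its value was seen).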
